A study of Mus musculus with 8 samples.

Results

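The endoplasmic reticulum (ER) is where secreted and membrane proteins are folded, and 10 genes of its folding machinery are described here: Hspa5, Hsp90b1, Pdia4, Calr, Canx, Dnajb9, Xbp1, Sdf2l1, Hyou1 and Herpud1. They were chosen by symbol, and all 10 were found among the 45777 genes of the deposited table. RNA had been sequenced from primary hepatic stellate cells, liver pericytes that hold retinoid droplets when quiescent and become collagen-making myofibroblasts once activated. The tested libraries (siPAK4) came from cells transfected with an siRNA against PAK4, a p21-activated kinase that acts on the actin cytoskeleton, and the others (siControl) from cells given a control siRNA. There were 4 libraries of each, all from wild-type male C57BL/6 mice and all under a single batch label. The labels give neither the age of the mice nor the origin of the replicates (separate animals or separate cultures). Each p-value therefore reflects variation among these libraries alone, and that variation may be technical.

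Unfolded protein in the ER lumen is sensed by 3 membrane proteins, IRE1 (Ern1), ATF6 and PERK (Eif2ak3). As background, IRE1 removes a short intron from Xbp1 RNA so that an active transcription factor is made, ATF6 is cut in the Golgi to free another factor, and PERK slows translation while ATF4 is made. ATF6 and XBP1 raise transcription of ER chaperone genes through the ER stress element (ERSE), bound together with NF-Y, and related elements. Stellate cells that secrete collagen place a heavy load on this system.

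The promoter letters that these factors read are shown first. They part the genes with a promoter window into those with and without an exact stress element in it. RefSeq windows on GRCm38.p6, the build also called mm10, were found for 9 of the 10 genes, all but Hyou1, which is therefore in neither class. Each runs from 250 bases before the first base of the gene to 50 bases from it. They were searched on both strands for ERSE (CCAAT, any 9 bases, CCACG), ERSE-II (ATTGG, any 1 base, CCACG) and the core of the unfolded protein response element (UPRE core, TGACGTG). ERSE and ERSE-II share the letters CCACG and can overlap there, though no 2 matches overlapped in the windows of these genes. Capitals mark the matches.
Hspa5, chr2:34771840-34772139, plus strand, whole window: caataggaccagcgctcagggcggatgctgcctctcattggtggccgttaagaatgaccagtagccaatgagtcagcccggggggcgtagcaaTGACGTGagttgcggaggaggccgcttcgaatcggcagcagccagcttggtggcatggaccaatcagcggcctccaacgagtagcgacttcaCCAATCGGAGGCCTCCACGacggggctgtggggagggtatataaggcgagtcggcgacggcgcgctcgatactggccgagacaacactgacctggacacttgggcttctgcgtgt
Hsp90b1, chr10:86705513-86705676, minus strand, both ERSE matches: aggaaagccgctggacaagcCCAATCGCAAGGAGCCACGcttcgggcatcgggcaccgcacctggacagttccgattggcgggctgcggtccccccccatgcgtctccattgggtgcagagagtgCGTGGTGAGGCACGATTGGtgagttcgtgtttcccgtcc
Calr, chr8:84847055-84847113, minus strand, ERSE on the opposite strand: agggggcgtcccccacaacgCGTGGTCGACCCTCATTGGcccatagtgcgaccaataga
Canx, chr11:50325780-50325838, minus strand, ERSE: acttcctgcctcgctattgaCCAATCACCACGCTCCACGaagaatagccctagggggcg
Herpud1, chr8:94386357-94386407, plus strand, ERSE-II: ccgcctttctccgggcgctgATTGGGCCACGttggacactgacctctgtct

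ERSE was present in the windows of 4 of these genes, Hspa5, Hsp90b1, Calr and Canx, and in 39 of all 32851 windows (0.119%). The matches began 65 bases before the start of Hspa5, 212 and 107 bases before that of Hsp90b1, 162 bases before that of Calr and 145 bases before that of Canx. ERSE-II was present in the window of Herpud1, 52 bases before its start, and in 12 of all windows (0.0365%). The UPRE core was found in the window of Hspa5, 157 bases before its start, and in 661 of all windows (2.01%). These letters were not in the windows of Pdia4, Dnajb9, Xbp1 and Sdf2l1. For Pdia4, Xbp1 and Herpud1, the stretch right after the start used here was found in no GENCODE transcript. The distance of the Herpud1 match from the start is therefore less certain. So is the absence of these letters near the start of Pdia4 and Xbp1. A match is a description of the sequence and does not show that a factor binds there.

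**Figure D1:**
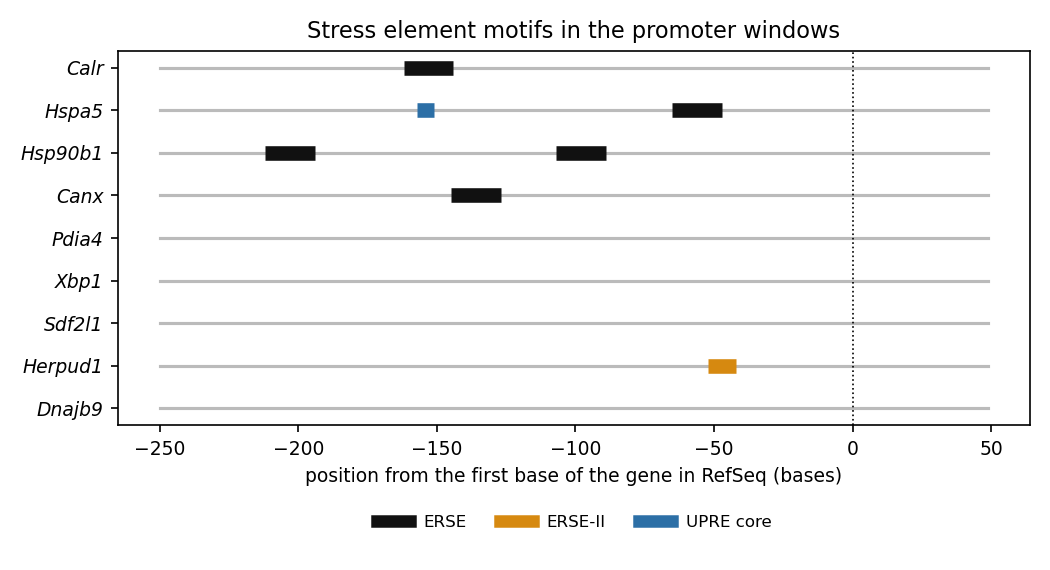
Exact matches of ERSE (black), ERSE-II (orange) and the UPRE core (blue) in the promoter windows of 9 genes. The horizontal axis gives bases from the first base of the gene in RefSeq (dotted line), and grey lines are the windows, which run from 250 bases before it; Hspa5, Hsp90b1, Calr and Canx hold ERSE and Herpud1 holds ERSE-II.

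The libraries held 55728583 to 59205049 counts (siPAK4) and 57297561 to 61535063 counts (siControl). Pak4 itself lay between 5.17 and 7.73 CPM (read counts per unit of library size, after TMM scaling, which sets the bulk of genes equal) in siPAK4 libraries, against 16.2 to 18.6 CPM in siControl libraries. Replicate 3 of siPAK4 stood apart from the other siPAK4 libraries on the second principal component (13.3% of the variance). Of the stellate cell markers, Dcn averaged 479 CPM in siPAK4 and 425 CPM in siControl and Reln 34.7 and 30.9 CPM, while the collagen genes Col1a2 and Col1a1 were lower in siPAK4 (268 and 639 CPM, and 122 and 328 CPM). Acta2, Ecm1, Pdgfrb and Des were lower as well, so 6 of 11 tested stellate cell markers were lower and none was higher (edgeR adjusted p under 0.05). Over all 17975 tested genes, 14.5% were called lower and 12.4% higher, the shares to set beside each count of markers here. Lrat, the retinol-esterifying enzyme, was at 0.216 and 0.0269 CPM. Macrophage and endothelial markers were present at high levels. Summed over 12 macrophage markers, among them Lyz2, Adgre1 and Csf1r, the level was 5099 to 8265 CPM in siPAK4 libraries, against 9136 to 10592 CPM in siControl libraries. Most of this was Lyz2 (means of 4849.5 CPM in siPAK4 and 7815 CPM in siControl). Of 11 tested macrophage markers 8 were lower, and Adgre1, Cd68 and Timd4 did not pass. Over 11 sinusoidal endothelial markers, among them Cdh5, Stab1 and Pecam1, the summed level was 3664 to 5348 CPM against 6173 to 6386 CPM. Of these markers, 6 were lower and 3 (Tek, Oit3 and Clec4g) were higher in siPAK4. Over 12 stellate cell markers the summed level was 900.1 to 1105 CPM against 1412 to 1805 CPM. Over 11 hepatocyte markers it was 8.04 to 18.8 CPM against 2.68 to 4.62 CPM, and over 10 B and plasma cell markers 2.44 to 4.73 CPM against 7.59 to 8.88 CPM, with Pou2af1 at 0 in every library. Over 7 cholangiocyte markers, nearly all of it Spp1, the ranges overlapped (1033 to 1502 CPM in siPAK4 and 1137 to 1610 CPM in siControl). In these bulk samples, fewer cells of a type and less RNA per cell cannot be told apart, and the part of these cell types in the results below was not tested.

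The 10 genes changed little. In edgeR's quasi-likelihood test, where p-values were adjusted by Benjamini-Hochberg across the 17975 tested genes and 0.05 was the limit, Calr, Hsp90b1 and Canx were lower in siPAK4, and 7 genes did not pass. Lower calls made up 14.5% of all tested genes, higher calls 12.4% and calls of either direction 26.9%, so calls in either direction, at 3 of 10, were near the background. All 10 genes passed the filter on low counts and were tested. None was called higher in this edgeR fit or by limma-voom, while DESeq2 called Pdia4 higher. Other edgeR settings also called Pdia4 higher (library totals, a minimum mean of 1 CPM, and without siPAK4 replicate 1), and library totals called Herpud1 higher. At an unadjusted p under 0.05 the main edgeR fit had 2 higher (Pdia4 and Herpud1) and 3 lower. The log2 fold changes of the 10 genes, siPAK4 over siControl, ran from −0.27 to 0.18 with a median of −0.070, beside a median of 0.0052 over all tested genes. The median size of the change, without its sign, was 0.13 for these genes and 0.19 for all tested genes. The 2 sets differ in level. Dnajb9, the lowest of the 10 genes in CPM, averaged 26.7 CPM in siPAK4 and 28.0 CPM in siControl. Only 14113 genes of the table reached a mean of 1 CPM, so many tested genes were scarcer. Sizes of change were not compared at a like level.

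Which of the 10 genes were called depended on how libraries were scaled, as did the sign for Hyou1, Dnajb9 and Sdf2l1. With library totals in place of TMM, the median over all tested genes moved to 0.094 and that of the 10 genes to 0.018. The 10 genes' median minus that of all genes was −0.075 under both, which differ by a near-constant shift, −0.023 with log2(FPKM + 1) and −0.11 without siPAK4 replicate 3. Under library totals Calr was lower, Pdia4 and Herpud1 were higher, and Hsp90b1 and Canx did not pass. Over all genes, 46.1% of calls were higher by TMM and 67.6% by library totals. Calr, with the largest fall, was lower in all 18 alternatives in sign, and passed in all of them except the 2 fits on FPKM.

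**Figure D2:**
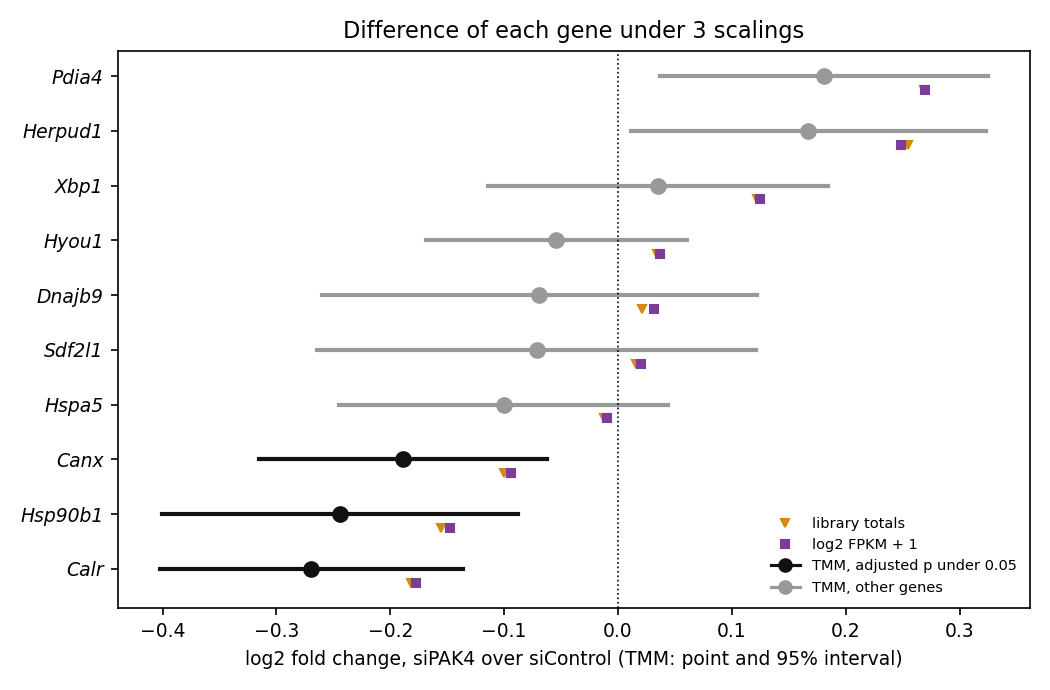
Log2 fold change of each gene, siPAK4 over siControl. Circles with lines are the TMM-scaled estimate and its 95% interval (black where the adjusted p is under 0.05, grey elsewhere), triangles the estimate with library totals, and squares that on log2(FPKM + 1); Hyou1, Dnajb9 and Sdf2l1 lie below 0 by TMM and above 0 by the other 2 scalings, and Calr, Hsp90b1 and Canx lie below 0 in all 3.

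The lectin chaperones came out lowest together with the ER form of Hsp90. Calreticulin (Calr, NCBI gene 12317, chromosome 8, 84842088 to 84846931) is the soluble lectin that holds newly glycosylated proteins in the lumen and also stores calcium there. It had 809, 865, 949 and 875 CPM in siPAK4 replicates 1 to 4, against 1059, 1058, 1041 and 1057 CPM in siControl replicates 1 to 4. Every siPAK4 library lay below every siControl library, and the siControl values were much tighter (874 ± 57.5 CPM in siPAK4 and 1054 ± 8.63 CPM in siControl, SD, n = 4 each). The log2 fold change was −0.27 (SE 0.061, 95% interval −0.40 to −0.14, edgeR adjusted p = 0.00693) and the level fell by 17.0%.

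Calnexin (Canx, chromosome 11, 50293957 to 50325673) is the membrane-bound partner of calreticulin. It had 903, 883, 925 and 942 CPM in siPAK4 replicates 1 to 4, against 1075, 998, 1090 and 1001 CPM in siControl replicates 1 to 4. The groups did not overlap, and siControl replicates 1 and 3 were the highest. The log2 fold change was −0.19 (SE 0.058, 95% interval −0.32 to −0.062, edgeR adjusted p = 0.0311).

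Hsp90b1 (chromosome 10, 86690841 to 86705444) encodes GRP94, the Hsp90 chaperone of the lumen, whose known clients include integrins and Toll-like receptors. Its level was 750.1, 768, 839 and 825 CPM in siPAK4 replicates 1 to 4, against 1026, 888, 990.1 and 864 CPM in siControl replicates 1 to 4. The groups did not overlap, though siPAK4 replicate 3 (839 CPM) and siControl replicate 4 (864 CPM) lay close. The log2 fold change was −0.24 (SE 0.072, 95% interval −0.40 to −0.088, edgeR adjusted p = 0.0254). The calls of Hsp90b1 and Canx lay close to the threshold: both were lost without siPAK4 replicate 1 or 2 or siControl replicate 1 or 3, with log2 fold changes of −0.23 to −0.20 and adjusted p of 0.0714 to 0.0802 for Hsp90b1, and of −0.18 to −0.17 and 0.0722 to 0.101 for Canx. Over all alternatives the adjusted p ran from 0.00408 to 0.159 for Hsp90b1 and from 0.00151 to 0.247 for Canx. Calr passed whichever library was left out (adjusted p of 0.000514 to 0.0269). The count of 3 called genes was 1, Calr alone, without siPAK4 replicate 2, siControl replicate 1 or siControl replicate 3.

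Of the 10 genes, the 4 that belong to the Hsp70 system of the lumen (Hspa5, Hyou1, Dnajb9 and Sdf2l1) did not pass. Hspa5 (BiP, chromosome 2, 34772090 to 34776529) is the main luminal Hsp70 and holds the stress sensors inactive while protein folding keeps up. Its level was 999, 1052, 1178 and 1066 CPM in siPAK4 replicates 1 to 4, against 1150, 1093, 1212 and 1149 CPM in siControl replicates 1 to 4. The groups overlapped, since siPAK4 replicate 3 lay above 3 of the siControl libraries. The log2 fold change was −0.10 (95% interval −0.25 to 0.044, edgeR adjusted p = 0.297), an interval that spans folds of 0.844 to 1.03. Without siPAK4 replicate 3, Hspa5 passed as lower (−0.15, adjusted p = 0.0483, with 0.0483 to 0.935 over all alternatives).

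Hyou1 (GRP170, chromosome 9, 44379490 to 44392369) is a large Hsp70-related protein that exchanges the nucleotide of BiP. It had 273, 260.2, 265 and 287 CPM in siPAK4 replicates 1 to 4, against 292, 284, 280.3 and 271 CPM in siControl replicates 1 to 4. The groups overlapped and the log2 fold change was −0.054 (95% interval −0.17 to 0.061, edgeR adjusted p = 0.497). Its sign turned with library totals and with FPKM, as did those of the next pair of genes.

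Dnajb9 (ERdj4, chromosome 12, 44205897 to 44210068) is a J-protein co-chaperone of BiP and a known XBP1 target. It stood at 26.9, 27.3, 26.7 and 25.8 CPM in siPAK4 replicates 1 to 4, against 33.1, 24.7, 28.5 and 25.6 CPM in siControl replicates 1 to 4. The siPAK4 libraries were nearly level and lay within the siControl range, in which replicate 1 was the highest (log2 fold change −0.069, 95% interval −0.26 to 0.12, edgeR adjusted p = 0.612; 0.021 without siControl replicate 1).

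Sdf2l1 (chromosome 16, 17130138 to 17132383) encodes a partner of the luminal J-proteins that is induced by ER stress. It had 46.9, 40.9, 52.4 and 43.2 CPM in siPAK4 replicates 1 to 4, against 41.7, 49.3, 50.5 and 51.2 CPM in siControl replicates 1 to 4. The highest library was siPAK4 replicate 3 and the lowest siPAK4 replicate 2, so the siPAK4 libraries spanned the whole siControl range (log2 fold change −0.072, 95% interval −0.26 to 0.12, edgeR adjusted p = 0.601).

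Pdia4 and Herpud1 had the highest fold changes of the 10 genes. Pdia4 (ERp72, chromosome 6, 47796141 to 47813512) is a disulfide isomerase that binds the same chaperone complexes as BiP and GRP94. It had 375, 387, 449 and 421 CPM in siPAK4 replicates 1 to 4, against 361, 339, 373 and 367 CPM in siControl replicates 1 to 4. Every siPAK4 library lay above every siControl library, replicate 1 by a narrow margin, and the log2 fold change was 0.18 (SE 0.066, 95% interval 0.037 to 0.33, edgeR adjusted p = 0.063). That missed the threshold, which Pdia4 passed with library totals, DESeq2, TPM, FPKM, a minimum mean of 1 CPM and without siPAK4 replicate 1 (adjusted p of 0.00556 to 0.174 over all alternatives).

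Herpud1 (chromosome 8, 94386429 to 94395371) is a membrane protein that assembles the complex for degradation of misfolded ER proteins. Its level was 53.8, 53.6, 63.9 and 52.9 CPM in siPAK4 replicates 1 to 4, against 46.9, 52.4, 48.8 and 51.5 CPM in siControl replicates 1 to 4. The groups did not overlap, though siControl replicate 2 came within 1 CPM of siPAK4 replicate 4, and siPAK4 replicate 3 stood well above the rest. The log2 fold change was 0.17 (SE 0.071, 95% interval 0.011 to 0.32, edgeR adjusted p = 0.107), and it passed as higher with library totals, TPM and FPKM (0.0168 to 0.234 over all alternatives).

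In all, the groups did not overlap in 5 of the 10 genes, 2 with siPAK4 higher and 3 with siPAK4 lower, where the groups did not overlap in 28.8% of all tested genes (14.0% higher and 14.8% lower). A ratio of 2 genes within a library needs no scaling. The reads of Pdia4 per 100 reads of Calr, a pair chosen after the values were seen as the ends of the range, were 46.4, 44.8, 47.3 and 48.1 in siPAK4 replicates 1 to 4, against 34.1, 32.1, 35.8 and 34.7 in siControl replicates 1 to 4. The groups did not overlap in this ratio, which describes the pair and, given how it was chosen, supports nothing further.

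**Figure D3:**
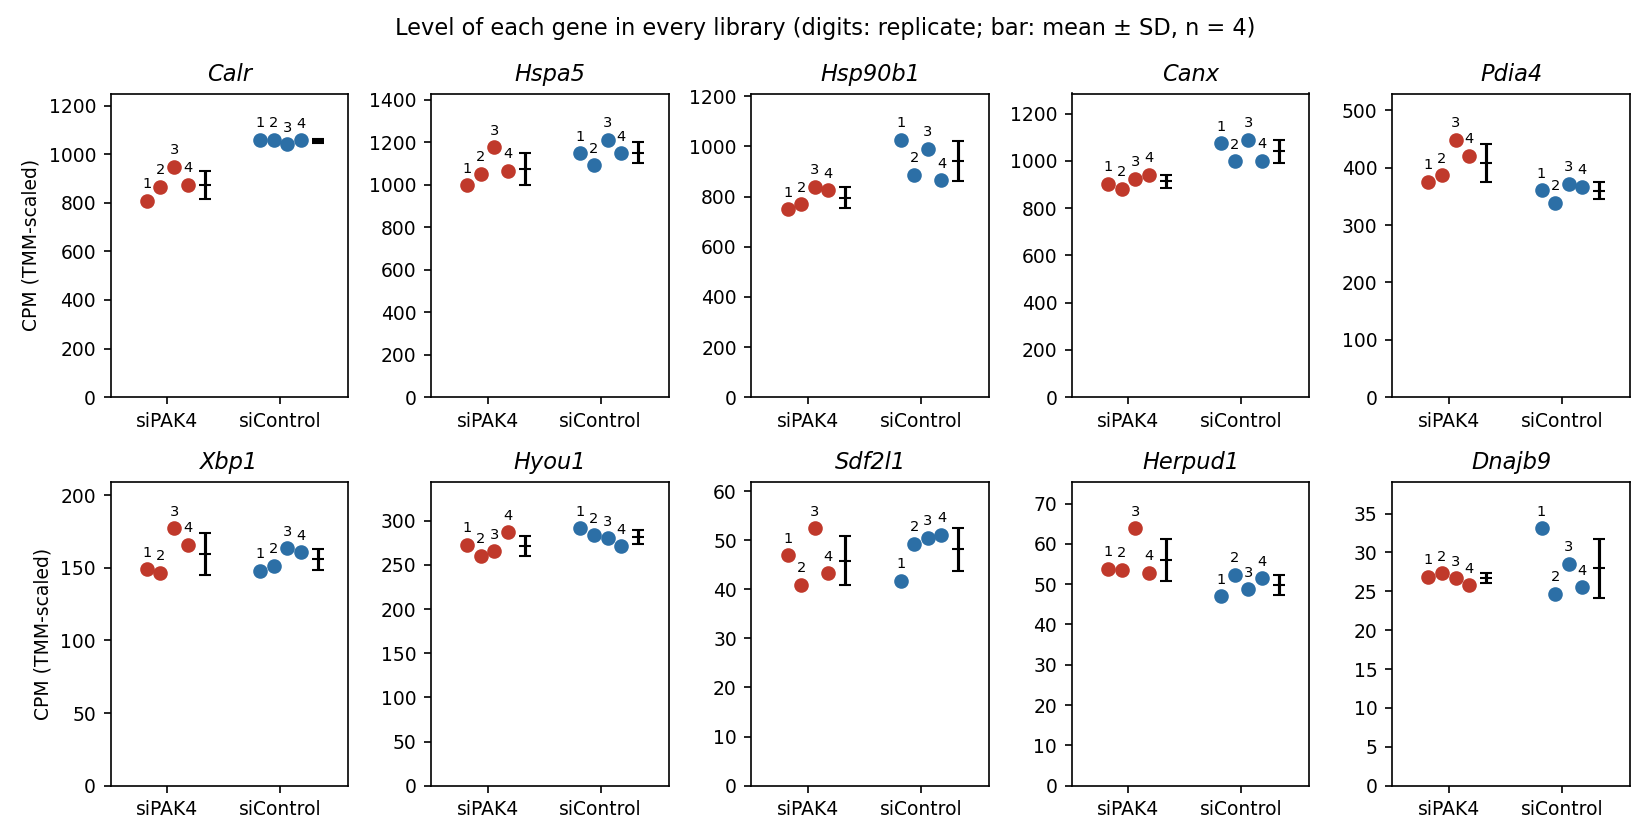
Level of each gene in CPM (TMM-scaled) in every library, siPAK4 in red and siControl in blue, with replicate numbers above the points and the mean ± SD (n = 4) as bars; each axis starts at 0. Calr, Hsp90b1 and Canx have every siPAK4 point below every siControl point, Pdia4 and Herpud1 the reverse, and siPAK4 replicate 3 is the highest siPAK4 library for 7 of the 10 genes.

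Xbp1 (chromosome 11, 5520641 to 5525993) is the transcription factor that IRE1 activates by splicing. It had 149, 147, 177 and 166 CPM in siPAK4 replicates 1 to 4, against 148, 151, 163 and 161 CPM in siControl replicates 1 to 4. The groups overlapped, with siPAK4 replicates 1 and 2 near the lowest siControl library and replicate 3 the highest of all (160 ± 14.5 CPM in siPAK4 and 156 ± 7.38 CPM in siControl, SD, n = 4 each). The log2 fold change was 0.035 (95% interval −0.11 to 0.18, edgeR adjusted p = 0.756) and −0.020 without siPAK4 replicate 3. Counts per gene sum the unspliced and spliced forms of Xbp1 RNA, so splicing by IRE1 was not measured.

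The levels per transcript length, in TPM (each library scaled to the same sum over transcripts) as deposited, were highest for Calr and lowest for Dnajb9. Calr averaged 987 ± 37.0 TPM in siPAK4 and 1160 ± 29.3 TPM in siControl (SD, n = 4 each), and Hspa5 920.2 ± 34.1 TPM in siPAK4 and 963 ± 47.7 TPM in siControl. Their ranges overlapped across libraries, but Calr was above Hspa5 within each of the 8 libraries. Next came Hsp90b1 (633 and 731 TPM in siPAK4 and siControl), Canx (468 and 520 TPM), Pdia4 (359 and 309 TPM), Xbp1 (156 and 149 TPM) and Hyou1 (133 and 134 TPM). Sdf2l1 (90.7 and 92.9 TPM), Herpud1 (62.8 and 54.5 TPM) and Dnajb9 (31.5 and 32.1 TPM) were the lowest. From Hspa5 down, the range of each gene over the 8 libraries did not overlap that of the next, so the order was the same in every library of both groups. Calr ranked between 102 and 134 among all genes by TPM over the libraries, and Dnajb9 between 4151 and 5300. The 10 genes together held 0.382%, 0.395%, 0.384% and 0.376% of all TPM in siPAK4 replicates 1 to 4, against 0.433%, 0.403%, 0.428% and 0.395% in siControl replicates 1 to 4. The groups met at siPAK4 replicate 2 and siControl replicate 4.

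**Figure D4:**
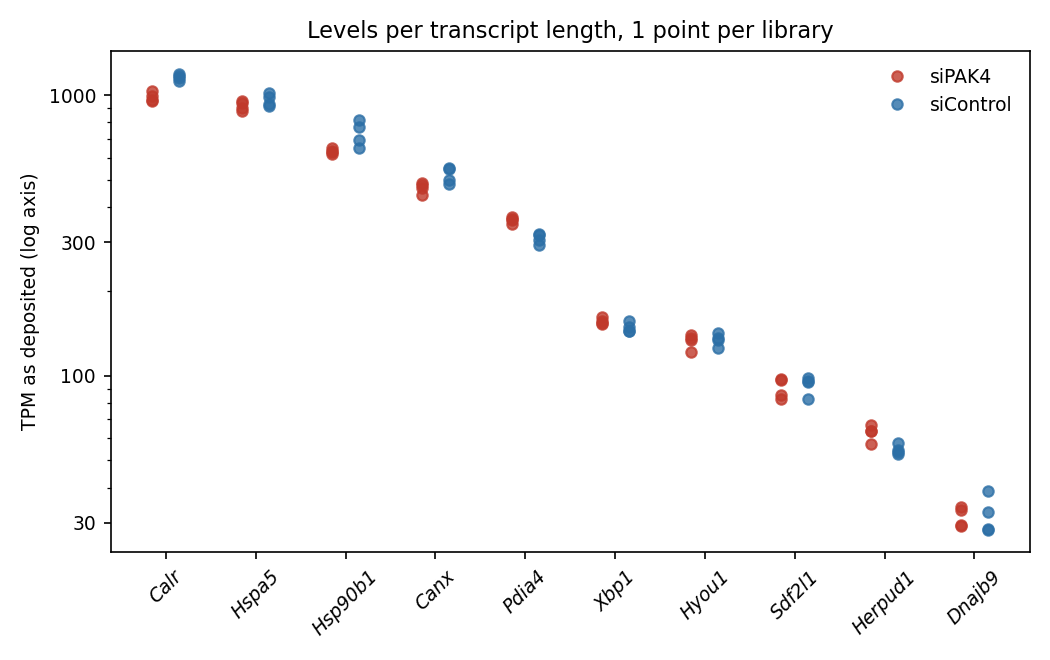
TPM of the 10 genes in each library on a log axis, ordered by mean, with siPAK4 (red) left of siControl (blue) and 1 point per library. The order of the genes is the same in all 8 libraries, with Calr and Hspa5 at the top and Dnajb9 at the bottom.

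In TMM-scaled CPM, most of the genes deviated the same way in siPAK4 replicate 3, a pattern that depended on the scaling. Replicate 3 of siPAK4 was above its group's mean for 9 of the 10 genes and the highest siPAK4 library for 7, with a median deviation of 0.13 on the log2 scale. By deposited TPM it was the highest siPAK4 library only for Pdia4, Xbp1 and Herpud1. It was the lowest for Hsp90b1 (620 TPM), Canx (440 TPM), Dnajb9 (29.2 TPM) and Hyou1 (121 TPM). The counts that follow are again from TMM-scaled CPM. In siPAK4 replicates 1, 2 and 4, 3, 1 and 6 of the 10 genes were above the mean. In siControl replicates 1 to 4, 6, 4, 7 and 5 were. Among siControl libraries, replicate 1 was the highest for 4 genes and the lowest for 3, and replicate 2 the lowest for 4. By the root-mean-square distance between log2 CPM profiles over the 8 libraries, each centred on its mean, the genes nearest to Hspa5 among 11360 were Acot9 (0.017), Usp15 (0.025), Vps41 (0.025), Hspa13 (0.027), which encodes an ER-associated Hsp70 family protein, and Nt5c2 (0.027). Of the 9 other ER genes, the nearest to Hspa5 was Canx (0.075, at rank 785) and the farthest Herpud1 (0.16, at rank 5479). The genes nearest to Xbp1 were Cdc42se2 (0.030), Vwa5a, Vav3, Klc4 and Snx4, with Pdia4 the nearest ER gene (0.082, at rank 889) and Dnajb9 the farthest (0.17, at rank 6413).

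Other genes of the ER were read from 9 lists by role. In total 130 of 132 were tested, of which 11 were higher, 27 lower and 92 did not pass (29.2% called, beside 26.9% of all genes; median −0.068). Without siPAK4 replicate 2 or siControl replicate 3 the 38 calls became 24 each.

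Of 10 sensor and ATF6-processing genes, 3 were lower and 7 did not pass (median −0.15), a share of calls near that of all tested genes. Atf6, which activates genes through ERSE, had 156 ± 5.52 CPM in siPAK4 and 214 ± 5.95 CPM in siControl (SD, n = 4 each; log2 fold change −0.46, edgeR adjusted p = 5.85e-05). Eif2ak3, the gene of PERK, fell by 0.38 on the log2 scale (38.1 ± 1.13 CPM in siPAK4 and 49.8 ± 3.24 CPM in siControl, SD, n = 4 each; adjusted p = 0.000781), and Creb3l2, an ATF6-related factor, by 0.89 (adjusted p = 0.00198). Ern1, the gene of IRE1, named here after its values were seen, had a log2 fold change of 0.056 with an adjusted p of 0.783.

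In the list named for the PERK and ATF4 branch 9 of 14 genes were higher and 5 did not pass (median 0.33), where 12.4% of all tested genes were called higher. Among those 5, Ddit4 (−0.11), Phgdh (−0.060) and Psat1 (−0.019), named after their values were seen, had a negative sign. The proapoptotic factor gene Ddit3 had 39.9 CPM in siPAK4 and 22.9 CPM in siControl (log2 fold change 0.80, edgeR adjusted p = 2.36e-05), and Trib3 (0.70), Cebpb (0.75) and the phosphatase subunit gene Ppp1r15a (0.62) rose as well. Within the same libraries, Hspa5 and Xbp1 did not pass and 3 chaperone genes were lower. A test of the difference between these sets of genes was not run. PERK activity was not measured, and what raised the genes of this list was not tested.

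Among 23 other luminal chaperones and folding enzymes, 1 was higher, 6 lower and 16 did not pass (median −0.10). Ero1a, listed as Ero1l, which encodes the oxidase that recharges disulfide isomerases, had 274 ± 23.9 CPM in siPAK4 and 175 ± 14.2 CPM in siControl (SD, n = 4 each; log2 fold change 0.64, edgeR adjusted p = 0.000103). Pdia3, the isomerase that works with calnexin and calreticulin, fell by 0.35 on the log2 scale (451 CPM in siPAK4 and 575 CPM in siControl, adjusted p = 0.00304). The prolyl isomerase gene Fkbp14 (−0.36) and the J-protein gene Dnajc3 (−0.26) also fell. With siPAK4 replicate 3 left out, 10 of these genes were lower. With library totals 4 were higher and 5 lower.

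In the calnexin and calreticulin cycle 1 of 8 tested genes, Uggt1, the folding sensor that sends glycoproteins back to calnexin, was lower (log2 fold change −0.21, edgeR adjusted p = 0.00959), and 7 did not pass. With library totals this list had 3 higher and none lower. Of 19 tested genes of ER-associated degradation, which removes proteins that fail to fold, Edem2 was higher (0.19), Vcp (−0.25) and Edem1 (−0.18) were lower and 16 did not pass. With library totals this list had 4 higher and 1 lower, and no gene of it was called higher with the replicate block or in 6 of the 8 fits that left out 1 library (all but those without siPAK4 replicate 2 or siControl replicate 1). Of 16 genes of the translocon, signal peptidase and signal sequence receptor, Ssr3 (−0.23), Sec63 (−0.27) and Spcs1 (−0.23) were lower and 13 did not pass. None of those 3 calls was made with library totals, or without siPAK4 replicate 2 or siControl replicate 3.

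Among 17 genes of COPII transport and retrieval, the cargo receptor gene Mia3 (−0.21) and the KDEL receptor genes Kdelr1 (−0.17) and Kdelr2 (−0.16), which bring luminal chaperones back from the Golgi, were lower, and 14 did not pass. These were also called by neither library totals nor the fits without siPAK4 replicate 2, siControl replicate 1 or siControl replicate 3. No gene of the 10 of the oligosaccharyltransferase passed with TMM-scaled edgeR on all libraries or with limma-voom (1 was higher with library totals, 1 was lower without siPAK4 replicate 3, 1 was lower with DESeq2, and 2 were lower at an unadjusted edgeR p under 0.05), and its 2 most abundant genes, Rpn2 and Rpn1, had log2 fold changes of 0.0020 and 0.021. Of 13 ER calcium genes, 9 were lower and 4 did not pass (median −0.21), where 14.5% of all tested genes were called lower. With library totals 6 of the calcium genes were lower, and with FPKM 5. The 9 included the pump gene Atp2a3 (−0.92), the calcium-binding protein genes Rcn3 (−0.49) and Calu (−0.42), and the channel gene Itpr3 (−0.51).

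**Figure D5:**
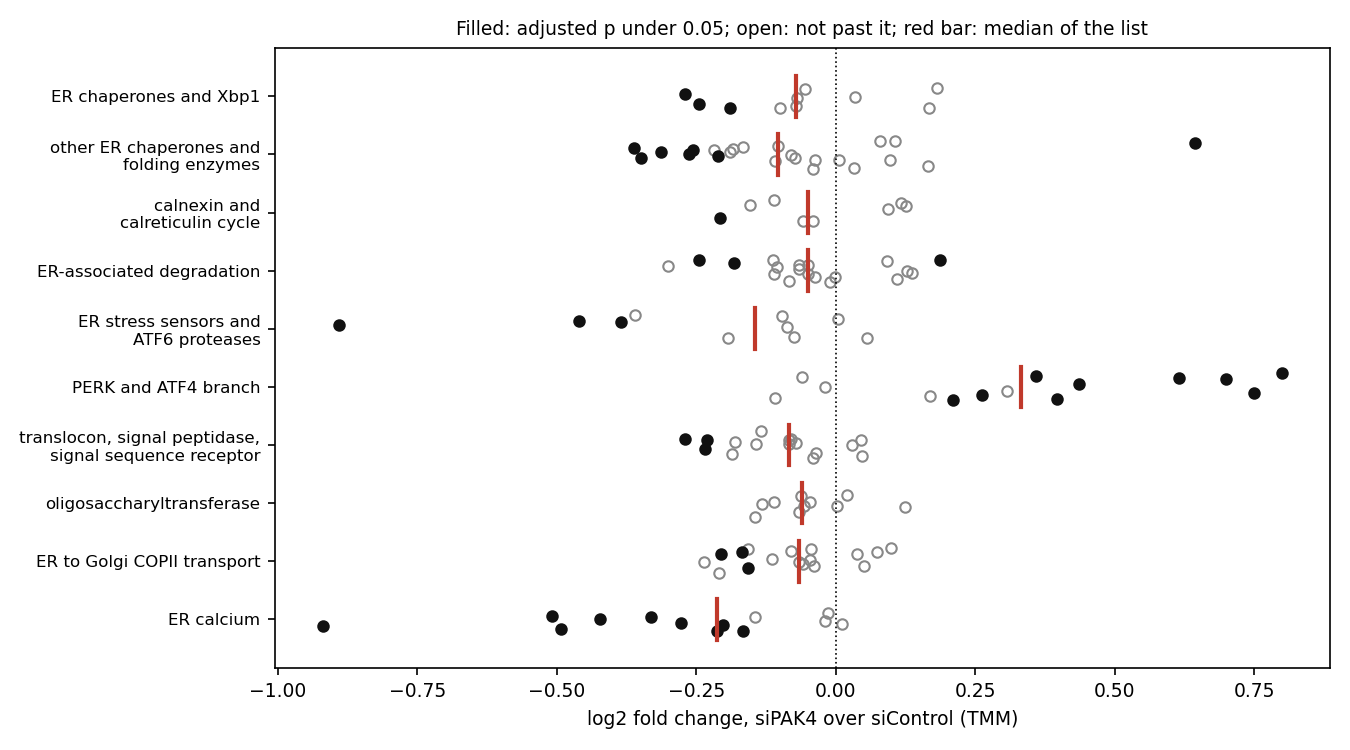
Log2 fold change, siPAK4 over siControl (TMM), of every tested gene of the 10 chaperone genes and of 9 lists of other ER genes, with filled points for an adjusted p under 0.05, open points for the rest and a red bar at the median of each list. The PERK and ATF4 branch lies to the right with a median of 0.33, the calcium genes to the left with −0.21, and most of the other lists have medians between −0.15 and −0.05; with library totals the medians of the calnexin cycle, degradation, translocon, oligosaccharyltransferase and transport lists lie just above 0.

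Genes with an exact ERSE near their start were called in both directions. Of the 37 genes with such a window, 23 were tested, with 4 higher, 8 lower and a median log2 fold change of 0.065. Over all tested genes, 12.4% were called higher and 14.5% lower, the shares to set beside every count in this paragraph. Whether genes with a motif differ from all tested genes was not tested. Outside the 4 printed above, 19 were tested, with 4 higher, 5 lower and 10 not past the threshold (median 0.098). Some that are known to act in the ER, named after their values were seen, were Pdia6 (−0.26, edgeR adjusted p = 0.00685), Dnajc3 (−0.26, adjusted p = 0.00548) and Ero1b, listed as Ero1lb (−0.31, adjusted p = 0.0186), which were lower, and Syvn1 (−0.30, adjusted p = 0.082), Creld2 (0.098, adjusted p = 0.295) and the mannosyltransferase gene Alg12 (0.12, adjusted p = 0.248), which did not pass. The 4 higher genes with ERSE, also named after their values were seen, were Spats2l (0.79), Acacb (0.54), Pan2 (0.33) and Gm20560 (1.07). Some of the 19 lay below 1 CPM in both groups, among them Gm20560 and Xlr3c (0.370 CPM in siPAK4 and 0.354 CPM in siControl). Of 9 tested genes with ERSE-II, 1 was higher, Rbm39 (0.22, adjusted p = 0.0192), and 8 did not pass, Herpud1 among them. Besides Hspa5, 391 tested genes held the UPRE core, of which 66 were higher and 61 lower, with a median of 0.019.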

How the data were processed

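RNA was sequenced from 8 libraries of mouse hepatic stellate cells, 4 siPAK4 and 4 siControl, grouped by their labels. The authors deposited read counts, FPKM and TPM per gene on mm10, per the file headers. The submitters' processing notes name StringTie 2.1.3b and the aligners HISAT2 2.1.0 and Bowtie2 2.3.4.1. Also named, per the submitters' processing notes, were FastQC 0.11.7 and bcl2fastq 2.20.0. No order or role is stated there. How reads were counted, and whether by strand, is not given in the sources used here, so reads of overlapping or antisense genes cannot be told apart.

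From the deposited counts, genes were filtered with filterByExpr (minimum count 10), scaled by TMM and tested with edgeR 4.0.16 (quasi-likelihood, R 4.3.3) for siPAK4 against siControl, with Benjamini-Hochberg adjustment over all 17975 genes kept and a threshold of 0.05. The deposited TPM gave levels between genes. Alternatives were library totals, RLE size factors, DESeq2 1.42.0, limma-voom (limma 3.58.1), other filters on low counts, limma on log2(TPM + 1), log2(FPKM + 1) and log2(FPKM + 0.1), a replicate block, and leaving out each library. The procedure was tested on simulated data. Intervals are at 95%. Samples of 1 group differed by more than the sampling noise, so all 8 were kept as separate samples.

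The 10 genes and the lists were chosen with earlier results of these data known. The text names all 10, Pak4, up to 4 called genes with the smallest adjusted p in each other list (the 2 most abundant where none passed), up to 3 markers of a cell type by level, and the 5 genes nearest to Hspa5 and to Xbp1 among those with a mean of at least 5 CPM; others are marked as chosen after their values were seen, apart from markers named to check the tissue label. Ero1a and Ero1b were matched through synonyms. Promoter windows are RefSeq's, on GRCm38.p6.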

Additional observations from a re-analysis of the deposited data

Results flagged for a closer look

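Each gene was examined within each group of 4 libraries, 20 groups in all, for a library whose gap to its nearest neighbour took up more of the group's range than Dixon's 95% critical value allows. Chance flags about 1 in 20 groups, and 2 were found. Herpud1 had 63.9 CPM in siPAK4 replicate 3, while the other siPAK4 libraries lay between 52.9 and 53.8 CPM. Calr had 1041 CPM in siControl replicate 3, while the other siControl libraries lay between 1057 and 1059 CPM, so this gap was small beside the level.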

How the results depend on the processing

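Pak4 was called lower under all 18 alternatives, and the number of called genes over the whole table ran from 3543 to 5736. With TMM 2227 genes were called higher and 2605 lower, against 3877 higher and 1859 lower with library totals. RLE size factors, limma-voom and no filter on low counts changed no call among the 10 genes. With library totals, Hsp90b1 (−0.16) and Canx (−0.10) were no longer called, Pdia4 (0.27) and Herpud1 (0.25) were called higher, and Dnajb9 (0.021), Sdf2l1 (0.016) and Hyou1 (0.034) turned positive. With log2(TPM + 1), Hsp90b1 (−0.20) and Canx (−0.15) were no longer called, Pdia4 (0.22) and Herpud1 (0.20) were, and the calls in the 9 lists came to 25. With log2(FPKM + 1), Hsp90b1 (−0.15), Calr (−0.18) and Canx (−0.094) were no longer called, Pdia4 (0.27) and Herpud1 (0.25) were, and Dnajb9 (0.032), Sdf2l1 (0.020) and Hyou1 (0.037) turned positive. With log2(FPKM + 0.1), the same 3 calls were lost (Hsp90b1 −0.15, Calr −0.18, Canx −0.094), the same 2 gained (Pdia4 0.27, Herpud1 0.26), and Dnajb9 (0.034), Sdf2l1 (0.021) and Hyou1 (0.037) turned positive. Pdia4 was also called with DESeq2 (0.18) and with a minimum mean of 1 CPM (0.18).

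Leaving out 1 library at a time gave −0.15 to −0.067 for Hspa5, −0.28 to −0.20 for Hsp90b1, 0.13 to 0.22 for Pdia4, −0.21 to −0.17 for Canx, −0.13 to 0.021 for Dnajb9 and −0.020 to 0.073 for Xbp1. The number of called genes among the 10 ran from 1 to 4, and that in the 9 lists from 24 to 50. Xbp1 was −0.020 without siPAK4 replicate 3 and Dnajb9 0.021 without siControl replicate 1. The cause of these changes was not tested.

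Same-numbered libraries did not deviate together (correlations of 0.10, −0.043, 0.17 and −0.097), so the replicate numbers are not read as a pairing, and not every library correlated best with its own number. With the replicate block 4587 genes were called in place of 4832, and Canx was not called (−0.19, adjusted p = 0.0623). Precision is limited by the 4 libraries in each group.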
